A study of Mus musculus with 9 samples.

Results

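Foxl2, Irx3, Irx5, Fst, Bmp2, Wnt4 and Rspo1 are genes of the ovarian pathway. They were picked by symbol and matched to the identifiers of the deposited count table, which gave 7 of its 38560 genes. Their levels were read in 9 RNA libraries of mouse fetal testis, made from gonads of 12.5 dpc (days post coitum) that were sexed by their cords. The libraries fall into 3 populations sorted by flow cytometry and labelled Leydig, Sertoli and Interstitial, with replicates A, B and C of each. All samples came from the Sf1-eGFP strain, which carries a green reporter under the control of the gene for steroidogenic factor SF1, and no group is described as treated or mutant. Each replicate pooled RNA from about 10 sorts of several litters, and replicate C was taken as the mix of A and B, so that 2 pools per population are independent. Cells stained for CD31, which marks germ and endothelial cells, were removed. How the gates were set is not described in the labels.

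The gonad of either sex starts out able to become an ovary or a testis. In the fetal ovary the secreted proteins WNT4 and RSPO1 stabilise beta-catenin in the supporting cells, the transcription factor FOXL2 maintains granulosa cell identity, and the homeobox factors IRX3 and IRX5 are made in pre-granulosa cells. Follistatin, the product of Fst, binds and blocks activins and some bone morphogenetic proteins, and BMP2 is a ligand of the latter family. In the fetal testis SRY and SOX9 direct the same supporting lineage to become Sertoli cells, and SOX9 and FGF9 oppose the WNT4 signal.

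Depth ranged from 33.12 to 39.24 M (mega) reads in genes, and levels are given as CPM, counts per M of these reads after TMM scaling. The limit that a count of 0 allows, 3 reads, lay between 0.0764 and 0.0906 CPM without that scaling. The populations were checked against marker lists by summed TMM-normalised CPM. The 20 genes of the Sertoli list summed to 4640 to 4894 CPM in the Sertoli libraries, 1545 to 1612 in Leydig and 401 to 450.0 in Interstitial. The 11 fetal Leydig markers summed to 485 to 764 CPM in Leydig and 674 to 723 in Sertoli, so they did not set the library labelled Leydig apart from the Sertoli sort, and to 132 to 160.0 in Interstitial. The 12 stromal markers overlapped between Leydig (3275 to 3688 CPM) and Interstitial (3023 to 3324) and summed to 1068 to 1117 in Sertoli, and the 11 endothelial markers still summed to 277 to 321 CPM in Leydig and Interstitial after the removal of CD31 cells. The Interstitial libraries held the most RNA of red cells (10 markers, 13737 to 14494 CPM), germ cells (10 markers, 972 to 1124) and mesonephric tubules (9 markers, 179 to 222), and no gene of these lists was at 0 in all 3 libraries of any population. Xist, the RNA of X inactivation in females, was at 117 CPM in Interstitial replicate A and 87.3 in replicate C against 7.11 in replicate B, and at 10.5 to 29.3 in the other sorts. Of 4 genes of the Y chromosome, Ddx3y, Uty and Kdm5d were lower in Interstitial than in both other sorts, in replicate B as well (Ddx3y at 71 to 85.6 CPM, against 108 to 144). Eif2s3y was not called, at 79.5 to 94.2 CPM in Interstitial against 65.8 to 78.1 in the other sorts. Whether RNA of female gonads entered these pools cannot be told from the labels, and its part in the Interstitial levels of the pro-ovarian genes was not tested. Without Interstitial replicate A, the log2 differences between Interstitial and Sertoli were -1.85 for Foxl2, -2.34 for Irx3, -1.99 for Irx5 and -2.74 for Fst. They were -0.33 for Bmp2, 0.75 for Wnt4 and 0.4 for Rspo1. Without Interstitial replicate B the differences were -2.08, -2.43, -0.75, -2.65, -0.37, 0.74 and 0.49, in the same order of genes. In these bulk libraries, fewer cells of a type and less RNA per cell cannot be told apart.

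The 7 genes fell into a group highest in the Sertoli sort (Foxl2, Irx3, Irx5 and Fst) and a group without a Sertoli maximum (Bmp2, Wnt4 and Rspo1). Per kb of exon, Rspo1 was at 5.23 to 7.93 CPM per kb over the 9 libraries, Wnt4 at 3.47 to 7.04 and Bmp2 at 1.47 to 3.48. Fst was at 0.351 to 3.41 CPM per kb and Irx3 at 0.337 to 2.43. Irx5 (0.0347 to 0.199) and Foxl2 (0.00753 to 0.157) were the lowest, with at most 22 and 18 reads in any library. The ranges of Bmp2, Fst and Irx3 overlapped, and the granulosa identity gene Foxl2 was measured close to the limit of detection.

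**Figure D1:**
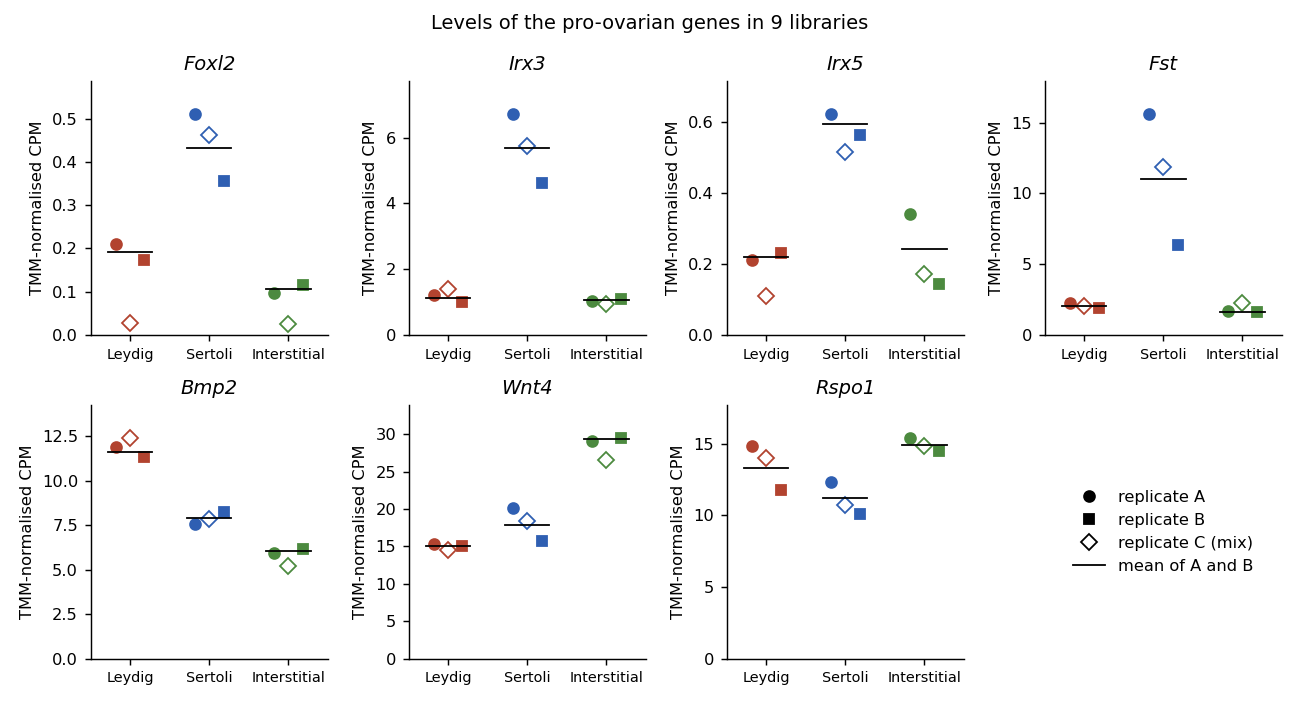
TMM-normalised CPM (vertical axis, from 0, a separate scale per gene) of the 7 genes in the Leydig, Sertoli and Interstitial sorts; points are libraries, with replicate C open, and lines are the means of replicates A and B. Foxl2, Irx3, Irx5 and Fst were highest in the Sertoli libraries, Bmp2 in the Leydig libraries and Wnt4 in the Interstitial libraries.

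Foxl2 (ENSMUSG00000050397, chromosome 9, 98955288 to 98958543, plus strand, GRCm38, as all gene coordinates here) encodes the forkhead factor of granulosa cells. It was at 0.51, 0.356 and 0.463 CPM in Sertoli replicates A, B and C, from 18, 12 and 17 reads. In Leydig it was at 0.211, 0.173 and 0.0271 CPM (7, 6 and 1 reads) and in Interstitial at 0.0977, 0.115 and 0.0245 CPM (4, 4 and 1 reads). All 3 Sertoli libraries were above all 6 others, and the Leydig and Interstitial libraries overlapped. The means were 0.433 ± 0.109 CPM in Sertoli, 0.192 ± 0.0263 in Leydig and 0.106 ± 0.0124 in Interstitial (SD, n = 2). The Sertoli level was 4.07-fold that of Interstitial, a log2 difference of -2.03 ± 0.48 (SE; edgeR adjusted p 0.00555). Against Leydig the difference was -1.19 ± 0.44 (edgeR adjusted p 0.0617) and did not pass the threshold of 0.05, although its 95% interval ran from -2.19 to -0.2. Foxl2 entered the test only through the Sertoli libraries, and its call against Interstitial was lost with DESeq2 (adjusted p 0.0665), without Sertoli replicate A (edgeR adjusted p 0.0563) and without Interstitial replicate A (edgeR adjusted p 0.0552).

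Foxl2os, a transcript from the opposite strand that starts beside Foxl2, was better covered and had the same order of levels. It was at 3.23, 2.11 and 2.45 CPM in Sertoli, 0.842, 0.722 and 0.679 in Leydig and 0.513, 0.576 and 0.294 in Interstitial. The Sertoli libraries did not overlap with either other group, with log2 differences of -1.8 ± 0.29 for Leydig (edgeR adjusted p 0.00137) and -2.32 ± 0.3 for Interstitial (edgeR adjusted p 0.000196). Its exons share 12 bases with those of Foxl2, 0.369% of the exon bases of Foxl2. Whether the counting used strand is not given in the sources, and reads over those bases cannot be assigned.

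Irx3 and Irx5 encode homeobox factors of the Iroquois family and lie on chromosome 8, Irx3 at 91798525 to 91802067 on the minus strand (ENSMUSG00000031734) and Irx5 at 92357625 to 92376286 on the plus strand (ENSMUSG00000031737). They are shown where they are most alike, because a read that matches both genes cannot be assigned to either. The stretch holds 180 coding bases that encode part of the homeodomain (GENCODE M21, 5′ to 3′). It spans positions 409 to 588 of the Irx3 coding sequence and 355 to 534 of that of Irx5. Capitals mark the 14 bases that differ; the other 166, 92.2%, are identical.
Irx3: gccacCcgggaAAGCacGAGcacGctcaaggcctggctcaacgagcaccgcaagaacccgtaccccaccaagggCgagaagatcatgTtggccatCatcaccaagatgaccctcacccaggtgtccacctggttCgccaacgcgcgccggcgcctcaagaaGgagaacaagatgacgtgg
Irx5: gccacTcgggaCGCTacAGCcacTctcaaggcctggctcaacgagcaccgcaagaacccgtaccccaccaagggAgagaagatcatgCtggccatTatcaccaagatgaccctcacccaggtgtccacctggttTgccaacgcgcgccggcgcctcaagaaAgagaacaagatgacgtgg
The longest run that any transcripts of both genes share is 50 bases, so a read can fail to tell the genes apart only if it lies within such a run.

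Irx3 was at 6.71, 4.63 and 5.74 CPM in Sertoli replicates A, B and C, at 1.23, 1.01 and 1.41 in Leydig and at 1.03, 1.09 and 0.931 in Interstitial. The 3 Sertoli libraries were above all others, and the Leydig and Interstitial libraries overlapped. Means were 5.67 ± 1.47 CPM in Sertoli, 1.12 ± 0.157 in Leydig and 1.06 ± 0.0483 in Interstitial (SD, n = 2). Irx3 was 5.15-fold higher in Sertoli than in Leydig (log2 -2.37 ± 0.25, edgeR adjusted p 0.000118) and 5.44-fold higher than in Interstitial (-2.44 ± 0.25, edgeR adjusted p 4.43e-05). Leydig and Interstitial differed by 0.08 ± 0.29 (edgeR adjusted p 0.85), with a 95% interval from -0.57 to 0.73. The authors' deposited table gives Irx3 a log2 fold change of -2.19 for Leydig against Sertoli (adjusted p 7.12e-07), and their table for Interstitial against Sertoli gives -2.41 (adjusted p 1.71e-07). Irx3os, on the opposite strand, shares 124 exon bases with Irx3 and was at 0.0271 to 0.482 CPM, below Irx3 in each library.

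Irx5 was at 0.623, 0.564 and 0.517 CPM in Sertoli (22, 19 and 19 reads), 0.211, 0.231 and 0.109 in Leydig (7, 8 and 4 reads) and 0.342, 0.144 and 0.172 in Interstitial (14, 5 and 7 reads). The 3 Sertoli libraries were again above all others, Leydig and Interstitial overlapped, and the pools of the Interstitial sort differed by a ratio of 2.38. Irx5 was 2.71-fold higher in Sertoli than in Leydig (log2 -1.44 ± 0.45, edgeR adjusted p 0.0355) and 2.41-fold higher than in Interstitial (-1.27 ± 0.43, edgeR adjusted p 0.0313). The call against Leydig was lost with DESeq2 (adjusted p 0.189) and without any 1 of the 4 libraries compared (edgeR adjusted p 0.11 to 0.156). The call against Interstitial was lost with DESeq2 (adjusted p 0.172), with scaling by library size alone (edgeR adjusted p 0.0542), without Sertoli replicate A (0.131) or B (0.0898) and without Interstitial replicate B (-0.75, edgeR adjusted p 0.214), and the difference was -1.99 without Interstitial replicate A.

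Of the other Iroquois genes and the transcripts next to the 7 genes, 4 of 7 listed entered the test, and 2 were higher and 1 lower in Interstitial than in Sertoli, where 32.7% and 29.1% of all genes were. Crnde, the long non-coding transcript beside Irx5, was at 1.71 ± 0.0676 CPM in Interstitial and 0.738 ± 0.0778 in Sertoli (log2 1.18 ± 0.33, edgeR adjusted p 0.0132, lost without Sertoli replicate A or B at 0.0505 and 0.0823). It thus had its highest level where Irx5 did not. Irx1, of the other Iroquois cluster and named after its values were seen, had 17, 26 and 21 reads in Interstitial and 0 to 3 in each other library, and it entered the test only through the Interstitial libraries. Irx2 of the same cluster was at 1.6 ± 0.784 CPM in Interstitial, 0.395 ± 0.218 in Leydig and 0.802 ± 0.294 in Sertoli, and was called between Interstitial and Leydig (log2 -2.0 ± 0.5 for Leydig, edgeR adjusted p 0.0116). That call was lost without Leydig replicate A (edgeR adjusted p 0.0513) and without Interstitial replicate B (0.0758), and without Leydig replicate B the difference was -2.71. Interstitial against Sertoli (0.96 ± 0.45, edgeR adjusted p 0.0931) was called in 5 of 15 alternatives, and with the replicate letter as a block both it (edgeR adjusted p 0.00905) and Leydig against Sertoli (0.0273) were. Irx4, Irx6 and Irx3os had too few reads to be tested.

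Fst (ENSMUSG00000021765, chromosome 13, 114452290 to 114458951, minus strand) encodes follistatin. It was at 15.6, 6.36 and 11.9 CPM in Sertoli replicates A, B and C, from 552, 214 and 438 reads. In Leydig it was at 2.29, 1.88 and 2.04 CPM and in Interstitial at 1.71, 1.61 and 2.28 CPM. Every Sertoli library exceeded every other library, but replicate A held 2.46 times the level of replicate B and replicate C lay between them. Means were 11 ± 6.56 CPM in Sertoli, 2.08 ± 0.289 in Leydig and 1.66 ± 0.0688 in Interstitial (SD, n = 2). Fst was 5.38-fold higher in Sertoli than in Leydig (log2 -2.43 ± 0.39, edgeR adjusted p 0.00126) and 6.71-fold higher than in Interstitial (-2.75 ± 0.4, edgeR adjusted p 0.000342). Both calls held without Sertoli replicate A, at smaller differences of -1.63 (edgeR adjusted p 0.00251) and -1.96 (edgeR adjusted p 0.00057). Leydig and Interstitial differed by 0.32 ± 0.44 (edgeR adjusted p 0.589; 95% interval -0.68 to 1.31). The authors' deposited table gives Fst -2.35 for Leydig against Sertoli (adjusted p 0.000108), and their table for Interstitial against Sertoli gives -2.46 (adjusted p 4.07e-05). Gm47040, on the opposite strand, shares 115 exon bases with Fst, 2.51% of its exon bases.

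Bmp2 (ENSMUSG00000027358, chromosome 2, 133552159 to 133562885, plus strand) was the only one of the 7 genes with its highest level in the Leydig sort. It was at 11.9, 11.3 and 12.4 CPM in Leydig, 7.59, 8.26 and 7.84 in Sertoli and 5.96, 6.16 and 5.22 in Interstitial. The 3 groups did not overlap. Bmp2 was 1.43-fold higher in Leydig than in Sertoli (log2 0.52 ± 0.12, edgeR adjusted p 0.00784) and 1.91-fold higher in Leydig than in Interstitial (0.93 ± 0.12, edgeR adjusted p 0.000422). The step from Sertoli to Interstitial was -0.41 ± 0.12 (edgeR adjusted p 0.0164). The authors' deposited table lists Bmp2 at 1.0 for Leydig against Interstitial (adjusted p 6.87e-07). The Leydig against Sertoli call was lost without Sertoli replicate A (edgeR adjusted p 0.0637), and the Interstitial against Sertoli call in 5 of 15 alternatives (edgeR adjusted p up to 0.227), while the Leydig against Interstitial call held in 15 of 15.

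Wnt4 and Rspo1 both lie on chromosome 4 on the plus strand, Wnt4 at 137277489 to 137299726 (ENSMUSG00000036856) and Rspo1 at 124986430 to 125009099 (ENSMUSG00000028871). Both were higher in Interstitial than in Sertoli, so the sequences before their starts are shown, from RefSeq on GRCm38.p6, plus strand, with CG dinucleotides in capitals: the 250 bases chr4:124986180-124986429 for Rspo1 and, up to the gene's annotated start, the 104 bases chr4:137277385-137277488 for Wnt4.
Rspo1: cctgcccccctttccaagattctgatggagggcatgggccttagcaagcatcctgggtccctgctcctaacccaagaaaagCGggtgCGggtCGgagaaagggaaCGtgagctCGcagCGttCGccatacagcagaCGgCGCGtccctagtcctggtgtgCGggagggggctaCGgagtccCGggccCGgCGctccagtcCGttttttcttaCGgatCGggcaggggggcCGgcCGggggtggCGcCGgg
Wnt4: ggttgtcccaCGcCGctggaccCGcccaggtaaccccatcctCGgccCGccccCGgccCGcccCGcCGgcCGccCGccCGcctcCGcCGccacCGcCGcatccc
The Rspo1 stretch holds 22 CG dinucleotides at 66.8% G and C, and the Wnt4 stretch 16 at 83.7%, against a median of 6 per 250 bases over 32851 promoters. The table had a promoter for 4 of the 7 genes (Foxl2, Irx3, Wnt4 and Rspo1), and they were searched on both strands over the 250 bases for 3 words. CTTTG, the core of TCF/LEF sites, is in 48.6% of all promoters, AAGGTCA, an SF1 half-site, in 4.08%, and AACAAT, a SOX core, in 9.42%. These letters were in 0 of the 4 windows.

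Wnt4 encodes the ligand of the ovarian pathway and is also made in the mesonephros. It was at 29.1, 29.5 and 26.5 CPM in Interstitial, 20.1, 15.7 and 18.4 in Sertoli and 15.3, 15.0 and 14.5 in Leydig. The 3 groups did not overlap. Wnt4 was 1.61-fold higher in Interstitial than in Sertoli (log2 0.69 ± 0.12, edgeR adjusted p 0.00093) and 1.94-fold higher in Interstitial than in Leydig (-0.96 ± 0.12 for Leydig, edgeR adjusted p 0.000371). Sertoli and Leydig differed by -0.27 ± 0.12 (edgeR adjusted p 0.119), a difference that passed the threshold with all 9 libraries (edgeR adjusted p 0.021) and without Sertoli replicate B (-0.44, edgeR adjusted p 0.0196). Between these sorts the mesonephric markers moved with Wnt4: all 9 of 9 were higher in Interstitial than in Sertoli, where 32.7% of all genes were. They summed to 179 to 222 CPM in Interstitial against 20.4 to 23.4 in Sertoli and 17.2 to 44.8 in Leydig. Between pools A and B, those at 1 CPM or more had a median ratio of 0.307 in Leydig, 1.13 in Sertoli and 0.822 in Interstitial. Wnt4 was at 1.02, 1.28 and 0.986 there. The part of mesonephric RNA in the Wnt4 difference was not tested.

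Rspo1 encodes the R-spondin that strengthens Wnt signals by removing the ligases ZNRF3 and RNF43 from the cell surface. It varied least of the 7 genes, with 14.8, 11.8 and 14.0 CPM in Leydig, 12.3, 10.1 and 10.7 in Sertoli and 15.4, 14.5 and 14.8 in Interstitial. The Leydig libraries overlapped with both other groups, and those of Sertoli and Interstitial did not overlap. The order Interstitial, Leydig, Sertoli held in the means (14.9 ± 0.643, 13.3 ± 2.09 and 11.2 ± 1.51 CPM; SD, n = 2), but only Interstitial and Sertoli differed past the threshold (1.31-fold, log2 0.39 ± 0.14, edgeR adjusted p 0.0391). That call was lost in 5 of 15 alternatives, among them DESeq2 (adjusted p 0.0651), leaving out Sertoli replicate B (edgeR adjusted p 0.245), Interstitial replicate A (0.111) or Interstitial replicate B (0.0529). Leydig and Sertoli differed by 0.22 ± 0.14 (edgeR adjusted p 0.274; 95% interval -0.11 to 0.54), and that difference passed the threshold with all 9 libraries (0.31, edgeR adjusted p 0.0156) and without Leydig replicate B (0.42, edgeR adjusted p 0.0482).

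**Figure D2:**
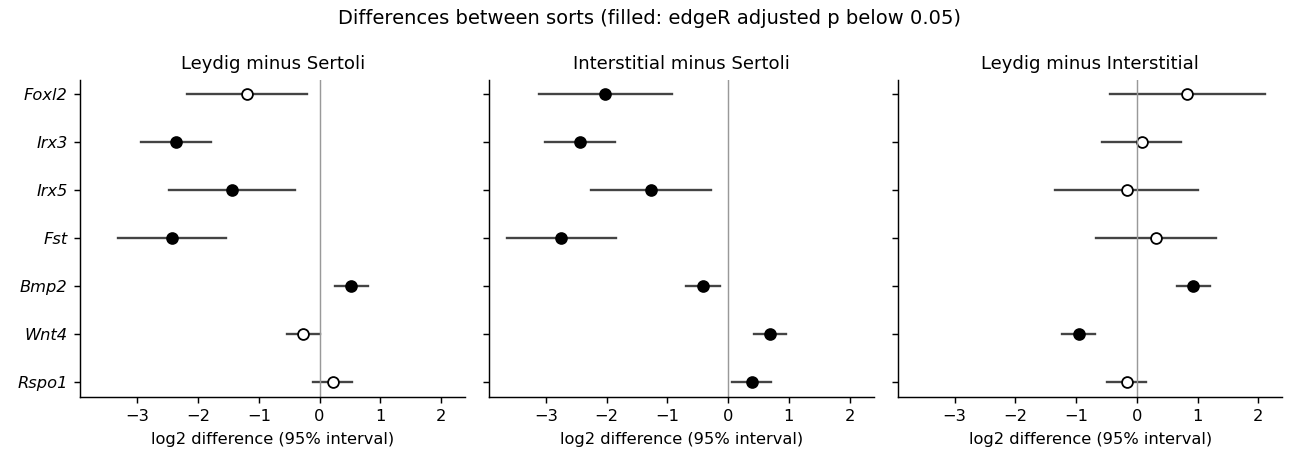
Log2 differences (horizontal axis) of the 7 genes between sorts from edgeR, with 95% intervals; filled points passed an adjusted p of 0.05. Irx3 and Fst lie between -2.37 and -2.75 in both comparisons against Sertoli and their intervals span 0 in Leydig minus Interstitial, where Bmp2 (0.93) and Wnt4 (-0.96) lie on opposite sides.

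Counted together, 4 of the 7 genes were called between Leydig and Sertoli, 1 higher in Leydig and 3 in Sertoli, where 37.5% of the 18048 genes tested were called, 16.9% higher in Leydig and 20.6% in Sertoli. Between Leydig and Interstitial 2 of 7 were called, Bmp2 higher in Leydig and Wnt4 in Interstitial, against 45.1% of all genes (22% and 23.2%), so that the members were not called more often than other genes there. Between Interstitial and Sertoli 7 of 7 were called, 5 higher in Sertoli and 2 in Interstitial, against 61.8% of all genes (29.1% and 32.7%). Foxl2 is counted there although it passed the filter only through the Sertoli libraries, where it was high. With DESeq2 this last count was 4. The median log2 difference of the 7 was -1.19, 0.08 and -1.27 in these comparisons, and that of all genes -0.005, 0.01 and 0.043. The comparisons share libraries, so their counts are not independent.

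The 4 members with a Sertoli maximum were set beside the listed Sertoli genes, each as a percentage of its own Sertoli level. Of the 20 listed Sertoli genes, 18 were called lower in Interstitial than in Sertoli. For these 18, the Leydig level was 28.6% of the Sertoli level at the median (21.3 to 44.1%) and the Interstitial level 4.43% (3.0 to 54.3%). Because these genes were kept for being lower in Interstitial, their Interstitial share is low in part by that choice. Fgfr2 and Cbx2, left out and named after their values were seen, were higher in Interstitial than in Sertoli by 0.93 and 0.56 (log2). Amh, the gene of anti-Müllerian hormone, stood at 27% and 3.59%. Irx3 was at 19.3% of its Sertoli level in Leydig (95% interval 13 to 28.9%) and at 18.4% in Interstitial (12.4 to 27.4%), and Fst at 18.6% (10 to 34.4%) and 14.9% (7.97 to 27.7%). For Irx3 and for Fst each share lay within the interval of the other, while 17 of the 20 Sertoli genes were called higher in Leydig than in Interstitial. Foxl2 was at 43.8% and 24.5% and Irx5 at 36.9% and 41.5%, each with a wider interval.

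In log2 terms, the Sertoli genes were higher in Leydig than in Interstitial by 2.43 at the median over 20 genes, 3 of which were called lower. The upper 95% bound of the same difference was 0.73 for Irx3, and 17 of the 20 Sertoli genes lay above it. It was 1.31 for Fst and 1.0 for Irx5, with 16 of 20 above each. For Foxl2 the bound was 2.11, with 12 of 20 above, but Foxl2 was under the filter in all Leydig and Interstitial libraries. Of the fitted libraries, Irx5 reached the filter in 0 of Leydig and 1 of Interstitial. Dmrt1 and Runx1 are named after their values were seen. Dmrt1, a Sertoli and germ cell gene, was higher in Interstitial than in Leydig, at 32.5% of its Sertoli level in Leydig and 54.3% in Interstitial. Runx1, a factor of the early supporting lineage of both sexes, was at 34.9% and 43.5%.

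**Figure D3:**
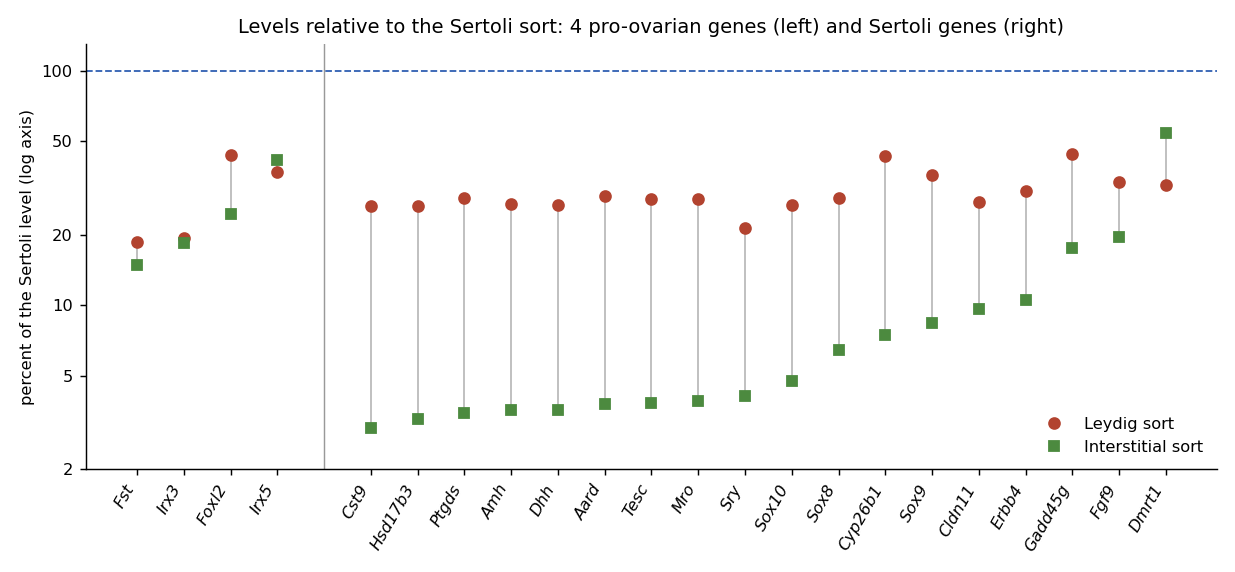
Level in the Leydig sort (circles) and the Interstitial sort (squares) as a percentage of the level in the Sertoli sort, on a log axis, for 4 pro-ovarian genes at the left and 18 Sertoli genes at the right. The 18 Sertoli genes have medians of 28.6% in Leydig and 4.43% in Interstitial. Both points of Irx3 lie at 18.4 to 19.3% and those of Fst at 14.9 to 18.6%. In Interstitial, Fgf9 and Gadd45g, named after their values were seen, lie near Irx3 (log2 -2.36, -2.51 and -2.44 against Sertoli). Fgf9 and Gadd45g were higher in Leydig than in Interstitial, by 0.8 and 1.32.

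The pre-granulosa and granulosa list, which holds genes that ovarian supporting cells express, was on balance higher in the Sertoli sort. Of 17 genes tested of 18 listed, 11 were higher in Sertoli and 6 in Interstitial, with a median of -0.95, where 29.1% and 32.7% of all genes were called in these directions. The stem cell receptor gene Lgr5, whose protein binds R-spondins, was at 106 ± 8.63 CPM in Sertoli, 31.1 ± 0.531 in Leydig and 6.72 ± 0.107 in Interstitial (log2 -4.0 ± 0.09, edgeR adjusted p 8.68e-09). Kitl, the KIT ligand for germ cells, was at 584 ± 45.8 CPM in Sertoli and 42.8 ± 4.42 in Interstitial (-3.8 ± 0.1, edgeR adjusted p 1.84e-08). Hsd17b1, an estradiol-forming enzyme of granulosa cells, was at 9.08 ± 0.387 CPM in Sertoli, 2.7 ± 0.265 in Leydig and 0.503 ± 0.0211 in Interstitial. These 3 genes fell from Leydig to Interstitial, with log2 differences of 2.2, 2.22 and 2.41, but they were named in part for that difference. Of the 17 genes, 10 were called higher in Leydig and 4 in Interstitial, against 22% and 23.2% of all genes. Irx3 and Fst were not called there. Neither were Runx1 (-0.32, edgeR adjusted p 0.0668) and Msx1 (-0.35, edgeR adjusted p 0.276) of the list, both higher in Sertoli than in Interstitial and named after their values were seen. Nr5a2, a nuclear receptor of granulosa cells, was at 15.1 ± 1.36 CPM in Interstitial, 2.42 ± 0.0197 in Sertoli and 3.48 ± 2.76 in Leydig (2.61 ± 0.42 for Interstitial against Sertoli, edgeR adjusted p 0.000677). Higher in Interstitial than in Sertoli as well were 10 of 10 germ cell, 9 of 9 mesonephric and 9 of 10 red cell markers. Between Leydig pools A and B the ratio of Nr5a2 was 0.282. The median ratio of markers at 1 CPM or more there was 0.251 for germ cells, 0.279 for red cells and 0.307 for mesonephric tubules. Between the Sertoli pools, where Nr5a2 had an SD of 0.0197 CPM, these medians were 1.53, 0.363 and 1.13. The part of these cells in the Nr5a2 level was not tested. Lhx9, a factor of the early gonad, was highest in Leydig (239 ± 22.2 CPM against 60.5 ± 1.44 in Sertoli; 1.96 ± 0.08, edgeR adjusted p 1.21e-06). Sertoli cells are also known to make KIT ligand. Cyp19a1, which makes estrogens, had too few reads to be tested.

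The receptors, inhibitors and targets of Wnt signalling are those through which Wnt4 and Rspo1 act. Of 38 listed, 36 were tested; 22 were higher and 10 lower in Interstitial than in Sertoli (all genes 32.7% and 29.1%), with a median of 0.89 against 0.043 for all genes. Between Leydig and Sertoli 18 were higher and 12 lower in Leydig (all genes 16.9% and 20.6%), and between Leydig and Interstitial 10 were higher and 16 lower (all genes 22% and 23.2%). Rspo3, the R-spondin related to Rspo1, was at 5.79 ± 1.87 CPM in Interstitial, 1.9 ± 0.0751 in Leydig and 0.26 ± 0.0733 in Sertoli (log2 4.43 ± 0.35 for Interstitial against Sertoli, edgeR adjusted p 8.5e-06). The contrast between the R-spondin genes was large: Rspo1 differed by 0.39 in that comparison. Rspo2 and Rspo4 had too few reads to be tested. Notum, which encodes an enzyme that inactivates Wnt ligands, was at 14.0 ± 0.352 CPM in Interstitial and 0.704 ± 0.407 in Sertoli (4.27 ± 0.28, and 5.03 without Sertoli replicate A). The receptor gene Fzd10 was at 15.4 ± 0.416 CPM in Interstitial and 1.05 ± 0.313 in Sertoli (3.84 ± 0.28). The mesothelial markers moved the same way, with 9 of 9 higher in Interstitial and sums of 259 to 306 CPM against 18.9 to 20.0 in Sertoli, as did the mesonephric markers above, and the part of these cells in the Wnt list was not tested.

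Among the listed genes of secreted inhibitors, Notum, Sfrp1, Sfrp2, Dkk1, Dkk2 and Dkk3 were higher in Interstitial than in Sertoli, and Wif1 was lower. Sfrp1, Sfrp2 and Dkk3 are named after their values were seen. Wif1, whose protein binds Wnt ligands, was highest in Sertoli (5.43 ± 0.223 CPM, against 1.53 ± 0.0813 in Leydig and 1.03 ± 0.0677 in Interstitial). Dkk1, whose protein blocks the LRP co-receptors, had 12.7 ± 3.86 CPM in Leydig against 2.86 ± 0.0478 in Sertoli (log2 2.12 ± 0.24, edgeR adjusted p 0.000153). Between Leydig and Interstitial, Dkk1 differed by -0.05 (edgeR adjusted p 0.857). The related gene Dkk2 had 3.45 ± 2.07 CPM in Interstitial against 0.591 ± 0.1 in Leydig (-2.56 ± 0.5, edgeR adjusted p 0.00342, and -1.76 without Interstitial replicate A). The target and feedback genes of the list did not share an order, and those given here are named after their values were seen. Axin2 was at 57.6 ± 1.68 CPM in Interstitial, 38.9 ± 1.9 in Leydig and 21.6 ± 1.71 in Sertoli, and Lef1 at 38.5 ± 1.98, 25.6 ± 1.9 and 10.4 ± 0.78. Nkd1 had the same order, at 42.8 ± 5.84, 25.5 ± 0.205 and 10.6 ± 1.76 CPM. Nkd2 had the reverse order, at 9.1 ± 0.813, 17.8 ± 1.13 and 51.1 ± 3.43 CPM, and Znrf3 was also highest in Sertoli (67.3 ± 8.47 CPM, against 38.1 ± 1.41 in Leydig and 32.0 ± 2.46 in Interstitial). Tcf7 (16.2 ± 1.96 CPM) and Rnf43 (2.62 ± 0.117 CPM) were lowest in Leydig, with Sertoli at 23.9 ± 3.51 and 5.08 ± 0.835, while Sp5 was at 1.7 ± 0.41 CPM in Leydig, 1.78 ± 0.166 in Sertoli and 6.29 ± 1.57 in Interstitial.

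**Figure D4:**
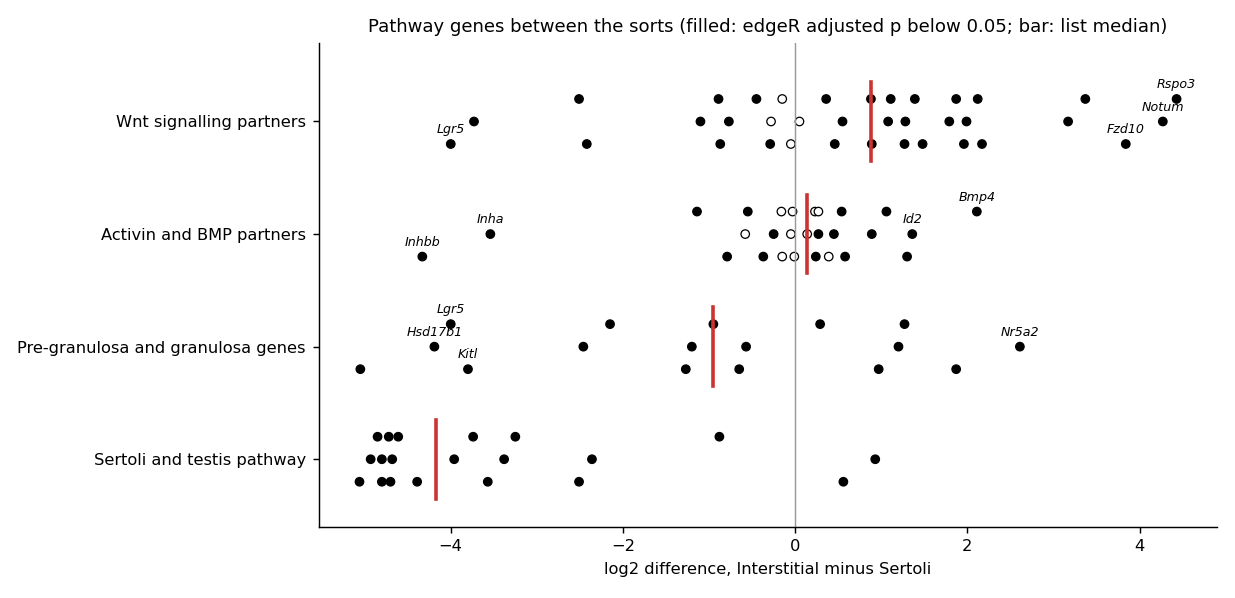
Log2 differences between the Interstitial and Sertoli sorts (horizontal axis) for the tested genes of 4 lists; filled points passed an edgeR adjusted p of 0.05 and bars are list medians. Wnt partners spread from -4.0 (Lgr5) to 4.43 (Rspo3) around a median of 0.89, and the Sertoli list lies mostly below -2, with a median of -4.18.

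Activin and BMP genes are the partners of Fst and Bmp2. Of 28 listed, 27 were tested; 10 were higher and 7 lower in Interstitial than in Sertoli, a share near the 61.8% of all genes, and the median of 0.14 was close to that of all genes. Between Leydig and Sertoli 12 were higher and 5 lower in Leydig (37.5% of all genes called), and between Leydig and Interstitial 9 were higher and 6 lower (45.1% of all genes called). The activin subunits, whose dimers follistatin binds, had different patterns. Inhbb was at 431 ± 27.1 CPM in Sertoli, 131 ± 2.9 in Leydig and 21.9 ± 4.19 in Interstitial (log2 -4.33 ± 0.12, edgeR adjusted p 2.53e-08), and Inha, the inhibin alpha subunit, was at 122 ± 7.14, 51.7 ± 11.6 and 10.7 ± 1.11 CPM (-3.54 ± 0.16). Inhba, the other activin subunit, was highest in Leydig at 10.1 ± 1.66 CPM, against 4.02 ± 0.00888 in Sertoli (1.3 ± 0.19, edgeR adjusted p 0.00086) and 4.92 ± 1.13 in Interstitial. Fst and Inhbb thus both had their maximum in the Sertoli sort, but Inhbb was 2.58 ± 0.12 higher in Leydig than in Interstitial on the log2 scale (edgeR adjusted p 1.79e-06), where Fst differed by 0.32.

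Among the BMP ligands and their targets, Bmp4 was highest in Interstitial, at 12 ± 0.216 CPM against 7.06 ± 0.924 in Leydig and 2.72 ± 0.524 in Sertoli (log2 2.11 ± 0.17 against Sertoli, edgeR adjusted p 1.07e-05). Bmp2 had the reverse order between Interstitial and Sertoli. Markers of other cells moved with Bmp4, with 9 of 9 mesothelial, 9 of 9 mesonephric, 10 of 11 endothelial and 11 of 12 stromal markers higher in Interstitial than in Sertoli, and their part was not tested. The type I receptor gene Bmpr1b had 6.17 ± 0.18 CPM in Interstitial against 2.86 ± 0.0816 in Leydig (-1.11 ± 0.16 for Leydig, edgeR adjusted p 0.000756). Id2, a target of BMP signals, was at 79.8 ± 5.04 CPM in Interstitial, 69.5 ± 4.09 in Leydig and 30.5 ± 5.58 in Sertoli (1.36 ± 0.12 for Interstitial against Sertoli, edgeR adjusted p 1.44e-05). Nog, which encodes the BMP antagonist noggin, had 1.01 ± 0.36 CPM in Interstitial against 0.367 ± 0.0937 in Leydig (-1.44 ± 0.38, edgeR adjusted p 0.0145). The Nog call was lost without Leydig replicate A (edgeR adjusted p 0.0825), without Interstitial replicate B (0.0956) and with all 9 libraries (-0.69, edgeR adjusted p 0.141).

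Few genes were as much higher in Sertoli pool A than in pool B as Fst was. Among 14100 genes with a mean of at least 1 CPM in Sertoli, the central 95% of log2 differences between replicates A and B ran from -0.45 to 0.45, and Fst was at 1.29. A difference of that size or more with A higher was found in 3 genes (0.0213%), Fst included. Genes lower in A were not counted, and Hba-x, a red cell marker, was at a ratio of A to B of 0.29. Irx3 was 1.45 times as high in A as in B, a log2 difference of 0.53 that 1.68% of genes reached in the same direction. Foxl2 (1.43), Foxl2os (1.53), Wnt4 (1.28) and Rspo1 (1.21) were also higher in A, Irx5 was at a ratio of 1.1 and Bmp2 at 0.919. Replicate C, the mix, lay between A and B for Foxl2, Irx3, Fst, Bmp2, Wnt4, Rspo1 and Foxl2os in Sertoli, but not for Irx5. In Leydig it lay outside A and B for 5 of the 7 genes (Foxl2, Irx3, Irx5, Bmp2 and Wnt4), and in Interstitial for 5 (Foxl2, Irx3, Fst, Bmp2 and Wnt4).

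Other markers were read for the same pair of pools. The 20 Sertoli genes had a median ratio of A to B of 1.03 (0.734 for Sox9 to 1.14 for Hsd17b3), so the Sertoli genes did not follow Fst. The granulosa-list genes Lgr5 (0.891), Kitl (0.895) and Runx1 (0.888) did not either, but the list also held Gng13 at 1.61, above Irx3, and its 16 genes at 1 CPM or more had a median ratio of 1.01. The 10 germ cell markers were higher in A, with a median ratio of 1.53 (1.1 to 1.81), and Xist was at 1.73, while the 9 red cell markers at 1 CPM or more had a median ratio of 0.363. The part of these cells in the Fst and Irx3 difference was not tested. In the Interstitial sort, where Xist was 16.4 times as high in A as in B, Irx5 was at a ratio of 2.38, Fst at 1.06, Rspo1 at 1.06, Irx3 at 0.938, Foxl2 at 0.848, Bmp2 at 0.967 and Wnt4 at 0.986.

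**Figure D5:**
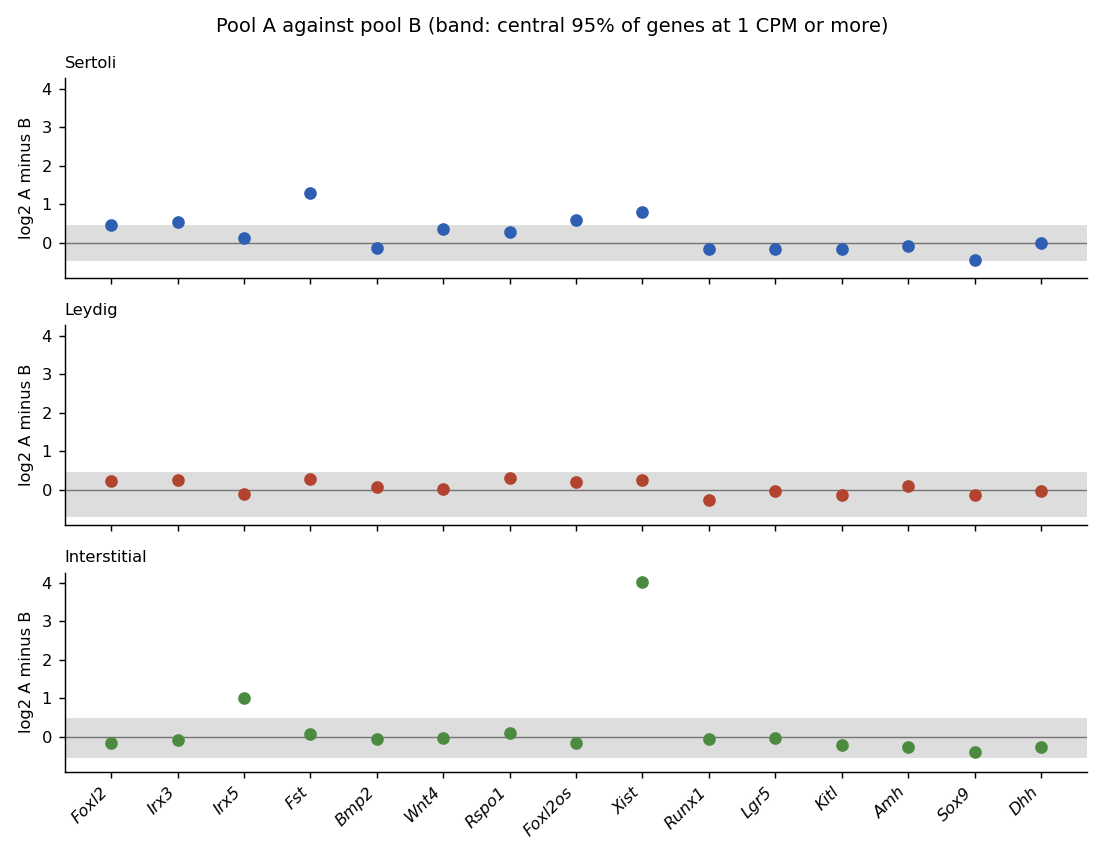
Log2 difference between pools A and B (vertical axis) in each sort for the 7 genes, Foxl2os, Xist and 6 genes of the supporting lineage; the grey band holds the central 95% of genes with a mean of at least 1 CPM. In Sertoli, Fst lies at 1.29, Xist at 0.79, Foxl2os at 0.6, Irx3 at 0.53 and Foxl2 at 0.46, above the band's upper edge of 0.45. In Interstitial, Xist lies at 4.03 and Irx5 at 1.0. Foxl2 and Irx5 were below 1 CPM in each library (at most 0.51 and 0.623), so the band does not describe genes of their level.

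The 7 genes were set beside each other and beside all other genes by Pearson's r of log2 CPM over the 9 libraries, given as a description, since replicate C repeats the RNA of A and B and the libraries fall into 3 sorts. Irx3 and Fst were the most alike of the 7 (r = 0.97), and Foxl2 and Irx5 had r of 0.82 and 0.84 with Irx3. Bmp2 and Wnt4 ran opposite (-0.91), and Wnt4 and Rspo1 had r = 0.52. Rspo1 ran opposite to Irx3 (-0.77), Foxl2 (-0.72) and Fst (-0.7). The 7 genes thus did not share 1 pattern.

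Outside the 7, the genes most like Irx3 were Sdha, of the respiratory chain (r = 0.996), Zdhhc12 (0.994) and Tnfrsf21 (0.993), and those most like Fst were Mtfr1 (0.989), Gm10053 (0.984) and Prr15 (0.979). Foxl2 was closest to Grin2b (0.981), Chadl (0.965) and Ndrg3 (0.958), and Irx5 to Thap4 (0.96), Gm25153 (0.947) and Apoa1 (0.943). Bmp2 was closest to Rgs3 (0.991), Tagln2 (0.99) and Fermt2 (0.989), Wnt4 to Tomm34 (0.991), Gng13 (0.989) and Psmd2 (0.989), and Rspo1 to the ligand gene Wnt11 (0.983), 2410004I01Rik (0.98) and Ctxn1 (0.972). The r does not measure the size of a difference: Sdha had 222 CPM in Sertoli against 173 in Leydig, while Irx3 differed 5.15-fold. Gng13, one of the granulosa-list genes, was at 2.91 CPM in Interstitial, 1.24 in Sertoli and 0.824 in Leydig, the same order as Wnt4.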

How the data were processed

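RNA was sequenced from 9 libraries, 3 sorts with replicates A, B and C, over 4 lanes each. The authors deposited a table of raw counts for each lane. Alignment used TopHat2 2.0.6 and mm10, and counting used HTSeq, per the submitters' processing notes, with strand setting and annotation release not stated there. The authors also deposited limma tables, whose log2 fold changes, p-values and scores (moderated t, log odds) are listed per the file headers; every gene in them has an adjusted p of at most 0.05 and a log2 change of at least 1.0 in size. Members missing from them were not read as unchanged. Of 38560 genes, 36638 took symbols from GENCODE M21, and 5 summary lines were left out (outside genes 32.23 to 38.52%, ambiguous 0.622 to 0.768% of the reads).

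Lanes were summed. Replicates A and B of all 3 sorts were fitted together in edgeR 4.0.16 (TMM, filterByExpr with a minimum count of 10, glmQLFit and glmQLFTest, R 4.3.3; 18048 genes tested, 3 residual degrees of freedom), with Benjamini-Hochberg adjustment over all tested genes and a threshold of 0.05. Foxl2 passed the filter only through the Sertoli libraries, Irx5 through these and 1 Interstitial library. Printed CPM are TMM-normalised over 9 libraries, and log2 CPM used a prior count of 2. Replicate C is the mix by elimination, as the labels do not name it. It lay between A and B in 55.3 to 71.0% of genes whose 3 values spanned at least 1.5-fold. P-values and 95% intervals of the fit rest on the spread between pools, not animals, and the floor of 3 reads covers counting error only. The fit was tested on simulated counts. Alternatives were DESeq2 1.42.0, limma 3.58.1 (voom), RLE size factors, other filters, all 9 libraries, the replicate letter as a block, the first 2 lanes, and each library left out. The members and lists were chosen with earlier results of these data known. Named were the 7 members, up to 4 called genes per list and comparison with the largest change at 1 CPM or more in the higher sort, and the 3 genes most correlated with each member, other genes where stated.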

Additional observations from a re-analysis of the deposited data

How the results depend on the processing

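Over 15 alternatives, the 7 genes in 3 comparisons gave 303 values, of which 272 kept their direction and side of the threshold, 24 lost a call, 5 gained one and 2 changed sign. The sign changes were uncalled differences between Leydig and Interstitial, Irx3 at -0.07 without Leydig replicate A and Irx5 at 0.59 without Interstitial replicate A; over all libraries left out in turn, they ran from -0.07 to 0.21 and from -0.64 to 0.59. Members called between Leydig and Sertoli numbered 7 with all 9 libraries, where the mix counts as a pool, and 2 to 4 when 1 library was left out. Between Interstitial and Sertoli they numbered 4 with DESeq2, 3 with the first 2 lanes (5 genes tested) and 4 to 7 when 1 library was left out. The Iroquois list had 5 calls with no low-count filter and with all 9 libraries, and 2 to 5 when 1 library was left out. The calls for Irx3 and Fst against Sertoli, and for Bmp2 and Wnt4 between Leydig and Interstitial, held in 15 of 15. Where a sort was left with 1 library, that library was assumed to vary like the others, and the cause of each change was not tested. Library size as the only scaling, an alternative chosen once the data had been seen, moved the median of all genes by 0.102, -0.064 and 0.168 (log2) for Leydig minus Sertoli, Leydig minus Interstitial and Interstitial minus Sertoli, and changed the sign of no member.

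Whether the replicate letter pairs the pools was not settled. Deviations of A from B correlated across genes at 0.248 between Interstitial and Leydig, 0.1 between Interstitial and Sertoli and 0.018 between Leydig and Sertoli. These values cannot decide it, because noise within each library lowers such correlations. With the letter as a block, 4, 2 and 7 members were called between Leydig and Sertoli, Leydig and Interstitial, and Interstitial and Sertoli, and the lists had 34 (Wnt), 19 (activin and BMP), 4 (Iroquois), 17 (pre-granulosa) and 20 (Sertoli) calls. Foxl2 and Irx5 are limited by depth, at 1 to 22 reads per library.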

Other observations

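The 2 other genes that were higher in Sertoli pool A than in pool B by at least as much as Fst were Nodal and Gm26035, named after their values were seen. Nodal, a ligand of the activin type, had 59 reads in Sertoli replicate A, 21 in B and 32 in C, at 1.67, 0.624 and 0.871 CPM. It was higher in Interstitial, at 7.3, 9.62 and 7.08 CPM, and in Leydig it was at 0.872, 2.25 and 1.11 CPM, lower in A than in B. Gm26035 was higher in A than in B in each sort, with 13.5 and 5.47 CPM in Sertoli, 8.36 and 5.17 in Leydig and 8.77 and 4.55 in Interstitial. Fst differed between the pools in Sertoli (15.6 and 6.36 CPM) and far less in Leydig (2.29 and 1.88) and Interstitial (1.71 and 1.61). The difference between sorts was not tested.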
